A study of Homo sapiens with 12 samples.

Results

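TC71 cells, an established Ewing sarcoma line, were profiled on Illumina BeadChips 48 h after they received a miR-130b mimic, which stands in for this microRNA, or an anti-miR against it. Each of these groups holds 4 arrays, labelled 1 to 4. The comparison therefore uses 8 of the 12 arrays of the series. The other 4 arrays carry a scramble control at the same time point. They stayed out of the fit, and their levels are given only beside those of the 2 groups compared. The test took in every probe with a detection p under 0.05 on 4 or more of the 8 arrays, 19660 of 47322 probes in all. Of these probes, 15147 carry 1 gene name and represent 11419 genes, each read by its brightest probe. Nothing in the labels tells whether replicate arrays stem from separate cultures, so p-values measure the spread between these samples, which may be technical. They also do not give the dose, the arm of the mimic or the kind of anti-miR, and all values come from 1 cell line. Levels are log2 intensities after background correction and quantile normalization, and a difference is always mimic minus anti-miR, with its standard error (SE). Adjusted p-values are limma's, after Benjamini-Hochberg adjustment over all kept probes. A call is described as lost where its adjusted p was 0.05 or above with the named array left out, and the highest adjusted p of the 8 such fits is given with it.

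A microRNA guides Argonaute proteins to messenger RNAs that pair with its seed, the stretch near its 5′ end, and the bound messages are then translated less or degraded. A mimic adds active microRNA, while an anti-miR pairs with the cell's own microRNA and blocks it. Messages under direct control of miR-130b would thus be lower with the mimic than with the anti-miR, and changes further downstream can go either way. The series title places ARHGAP1, a GTPase-activating protein that switches off the small GTPase CDC42, directly under miR-130b, and puts CDC42, the kinase PAK1 and the AP-1 transcription factor in 1 activating chain.

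Mature microRNAs of the family, other than miR-130a-3p, are shown because a shared seed means that their sets of possible targets overlap. They come from RefSeq on GRCh38.p14, written 5′ to 3′ with the seed, bases 2 to 8, in capitals. The miR-130b-3p arm maps to the plus strand at chr22:21653354-21653375.
miR-130b-3p: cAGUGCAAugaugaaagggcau
miR-301b-3p: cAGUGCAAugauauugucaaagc
miR-301a-3p: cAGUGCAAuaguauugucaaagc
miR-454-3p: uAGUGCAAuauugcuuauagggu
miR-130b-5p: aCUCUUUCccuguugcacuac
The first 4 carry the same seed, AGUGCAA, and differ beyond it. Compared position by position, miR-301b-3p matches miR-130b-3p at 13 bases, miR-301a-3p at 11 and miR-454-3p at 10. The opposite arm, miR-130b-5p, has the seed CUCUUUC. The array's probe for MIR130B was detected on 0 of the 12 arrays, so these data check neither the mimic nor the anti-miR at the level of the microRNA itself. Probes for MIR301A and MIR301B were detected on 0 arrays too, and the MIR454 probe on 1 mimic and 2 anti-miR arrays. MIR130A was detected on all 12 arrays and differed by -0.46 ± 0.19 (adjusted p = 0.142), with groups that overlapped.

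Sample-level checks came before the gene results. Median raw intensity was 84.5 to 87.6 on the mimic arrays and 72 to 82.5 on the anti-miR arrays, and between 19081 and 20544 probes were detected per array. The first principal component held 31.37% of the variance, with the mimic arrays at 26.27, 11.92, 25.94 and 27.83 and the anti-miR arrays between -20.42 and -2.654. Mimic 2 thus lay nearest to the other groups. Within the mimic group, mimic 1 and 4 correlated best with each other (r = 0.9939), and so did mimic 2 and 3 (r = 0.99277). The 4 mimic arrays were therefore not alike, and some genes below split them in the same way. What set these pairs apart was not tested. The part of the lower anti-miR intensity in the results was not tested. Of 12 Ewing sarcoma markers listed, 11 had a named probe, and these 11 were detected on every one of the 8 arrays. Of the markers of other cell types, 8 fibroblast, 2 epithelial, 4 blood cell and 2 endothelial genes could be tested.

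At an adjusted p under 0.05, 1955 of 19660 probes (9.94%) and 1161 of 11419 genes were called (10.2%), with 598 higher with the mimic (5.24%) and 563 lower (4.93%). The called differences were mostly small. Their median size was 0.5 on the log2 scale, and only 19 of the genes called higher and 16 of those called lower passed a 2-fold difference. Over all genes the median difference was 0.01, with quartiles at -0.15 and 0.17, so the distribution was nearly centred. The groups did not overlap at 2321 of the 11419 genes tested (20.3%). Among the 1161 called genes they did not overlap at 1110, which follows largely from the selection on p. How many genes were called depended heavily on single arrays. Leaving out mimic 1 gave 357 calls, leaving out mimic 4 gave 388, and leaving out mimic 2 gave 1193. In all 8 fits with 1 array left out, 310 of the 1161 genes were still called, 145 of them higher and 165 lower.

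**Figure D1:**
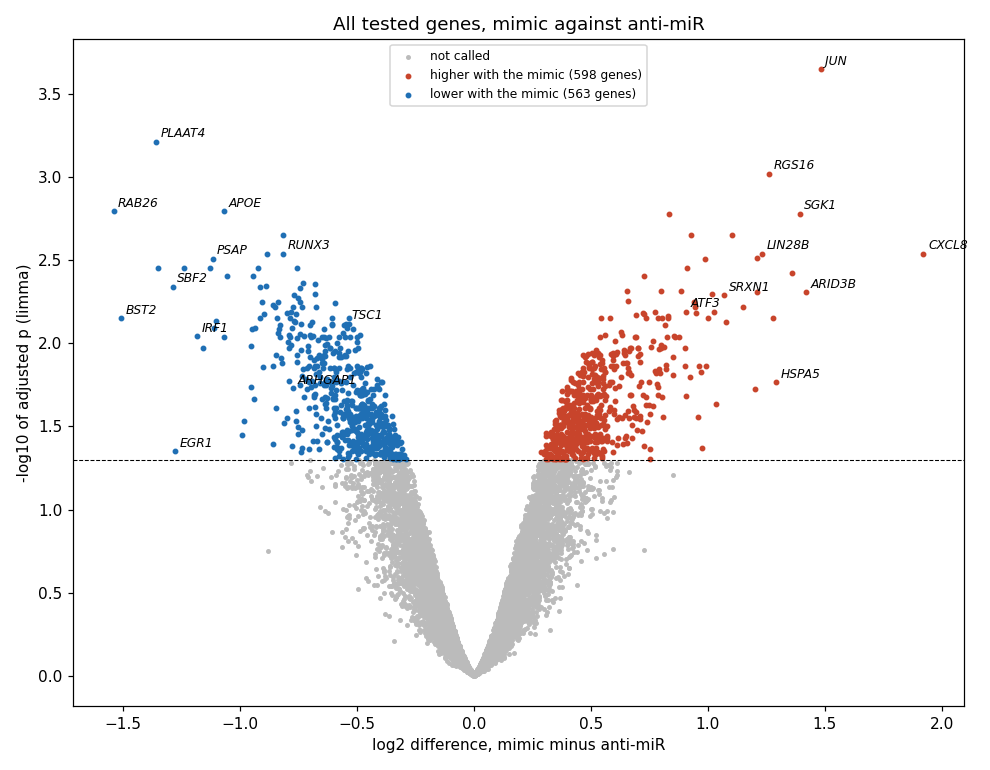
Each point is 1 of 11419 genes, placed by its log2 difference (mimic minus anti-miR) and the negative log10 of limma's adjusted p, with the threshold of 0.05 as a dashed line. JUN has the smallest adjusted p of all genes and CXCL8 the largest difference at 1.92, while RAB26 at -1.54 lies farthest to the left.

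Reported targets of the miR-130 family, in the shorter form of their list, were called only lower with the mimic. Of 36 genes listed as targets, 31 had a named probe and 20 were tested, and 8 were called lower and 0 higher. That is 40% called, beside 10.2% of all genes, and the median difference was -0.23 against 0.01 over all genes. ARHGAP1, the target that the series title names, is among the 8, so this share is not independent of the study's own finding. The list had been shortened by 14 genes whose reports could not be recalled with certainty, after their values were seen. In its longer form, 12 of 32 genes tested were lower and 1 was higher. The transcription factor IRF1, an activator of interferon-responsive genes, read 6.05, 6.52, 6.16 and 5.58 on the mimic arrays, 7.42, 6.82, 7.31 and 7.49 on the anti-miR arrays and 7.13, 6.87, 6.73 and 6.77 on the scramble arrays. All mimic arrays lay below all anti-miR arrays, at a difference of -1.18 ± 0.20 (adjusted p = 0.00906). RUNX3, a transcription factor of the RUNT family, read 9.27, 9.61, 9.49 and 9.47 on the mimic arrays, 10.23, 10.34, 10.26 and 10.27 on the anti-miR arrays and 10.22, 10.08, 10.16 and 9.91 on the scramble arrays. Its groups were also apart, with scramble nearer to the anti-miR, and its difference was -0.82 ± 0.09 (adjusted p = 0.00289). The BMP receptor ACVR1 differed by -0.55 ± 0.10 (adjusted p = 0.0118).

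TSC1, a brake on mTOR complex 1, read 8.61, 8.67, 8.57 and 8.55 on the mimic arrays, 9.14, 9.17, 9.24 and 9.03 on the anti-miR arrays and 9.11, 8.998, 8.79 and 8.86 on the scramble arrays. The 4 mimic values were the lowest of the 12, and the difference was -0.54 ± 0.09 (adjusted p = 0.00763). The other probes named TSC1 gave -0.06 and -0.44. IRF1, RUNX3, ACVR1 and TSC1 stayed called in all 8 fits with 1 array left out. The gap junction gene GJA1 did not, since its difference of -0.58 ± 0.15 (adjusted p = 0.0355) was lost with any array left out but mimic 2 (highest adjusted p 0.0963).

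ARHGAP1 is the target named in the series title. Its level was 7.68, 8.46, 8.48 and 8.01 on the mimic arrays, 8.98, 8.97, 8.84 and 8.94 on the anti-miR arrays and 8.74, 8.71, 8.74 and 8.76 on the scramble arrays. Every mimic array was below every scramble and anti-miR array, and the mimic arrays ran from 7.68 to 8.48 while the other groups were tight. The difference was -0.77 ± 0.16 (adjusted p = 0.0186), a level 1.71-fold lower with the mimic. This call was lost without mimic 4 (highest adjusted p 0.0549). CDC42 itself, the GTPase that ARHGAP1 switches off, differed by -0.25 ± 0.14 (adjusted p = 0.256), with groups that overlapped, and its further probes gave 0.04 and -0.16. PAK1 is not analysed here.

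Genes around CDC42, RAC and PAK were called at a share near the background. Among 39 tested, 1 was higher and 4 were lower, or 12.8% against 10.2% of all genes. Only the higher call held with any 1 array left out. RAC2, a RAC GTPase best known from blood cells, differed by -0.56 ± 0.14 (adjusted p = 0.034), a call lost with any array left out but mimic 4 or anti-miR 3 (highest adjusted p 0.0813). WIPF1, a partner of the actin regulator WASP, differed by -0.50 ± 0.11 (adjusted p = 0.0197). That call was lost without mimic 1 or 4 (highest adjusted p 0.0615), and a second WIPF1 probe gave 0.09.

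Within AP-1, the dimeric transcription factor of JUN, FOS, ATF and small Maf proteins, JUN had the smallest adjusted p of the 11419 genes. It read 9.27, 9.11, 9.38 and 9.34 on the mimic arrays, 7.67, 7.97, 7.80 and 7.74 on the anti-miR arrays and 8.83, 8.19, 8.29 and 8.27 on the scramble arrays. The 3 groups did not overlap, with scramble in the middle. The difference was 1.48 ± 0.10 (adjusted p = 0.000223), a 2.79-fold higher level with the mimic. ATF3, a stress-induced partner of JUN, read 8.88, 9.34, 9.33 and 8.91 on the mimic arrays, 8.34, 8.23, 8.28 and 7.99 on the anti-miR arrays and 9.15, 8.19, 8.18 and 8.22 on the scramble arrays. Mimic and anti-miR arrays were apart, at 0.91 ± 0.13 (adjusted p = 0.00644), while scramble 1 lay among the mimic arrays.

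The 10 other AP-1 and Maf genes tested were not called. JUND came close, at 0.35 ± 0.10 (adjusted p = 0.0524), and so did MAFG, at 0.49 ± 0.14 (adjusted p = 0.0533). Both had groups that did not overlap at these probes. A further MAFG probe gave 0.23 (adjusted p = 0.278), with groups that overlapped. FOSL1 differed by 0.23 ± 0.16 (adjusted p = 0.384), FOSL2 by -0.18 ± 0.09 (adjusted p = 0.228) and JUNB by -0.07 ± 0.14 (adjusted p = 0.762). JUNB turned to a difference of 0.03 when anti-miR 4 was left out. Probes for FOS, BATF and BATF2 were detected on 0 of the 12 arrays, and the FOSB probe on 1 array of each group. In all, 2 of 12 genes were called, or 16.7%, and the list's median was 0.17.

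**Figure D2:**
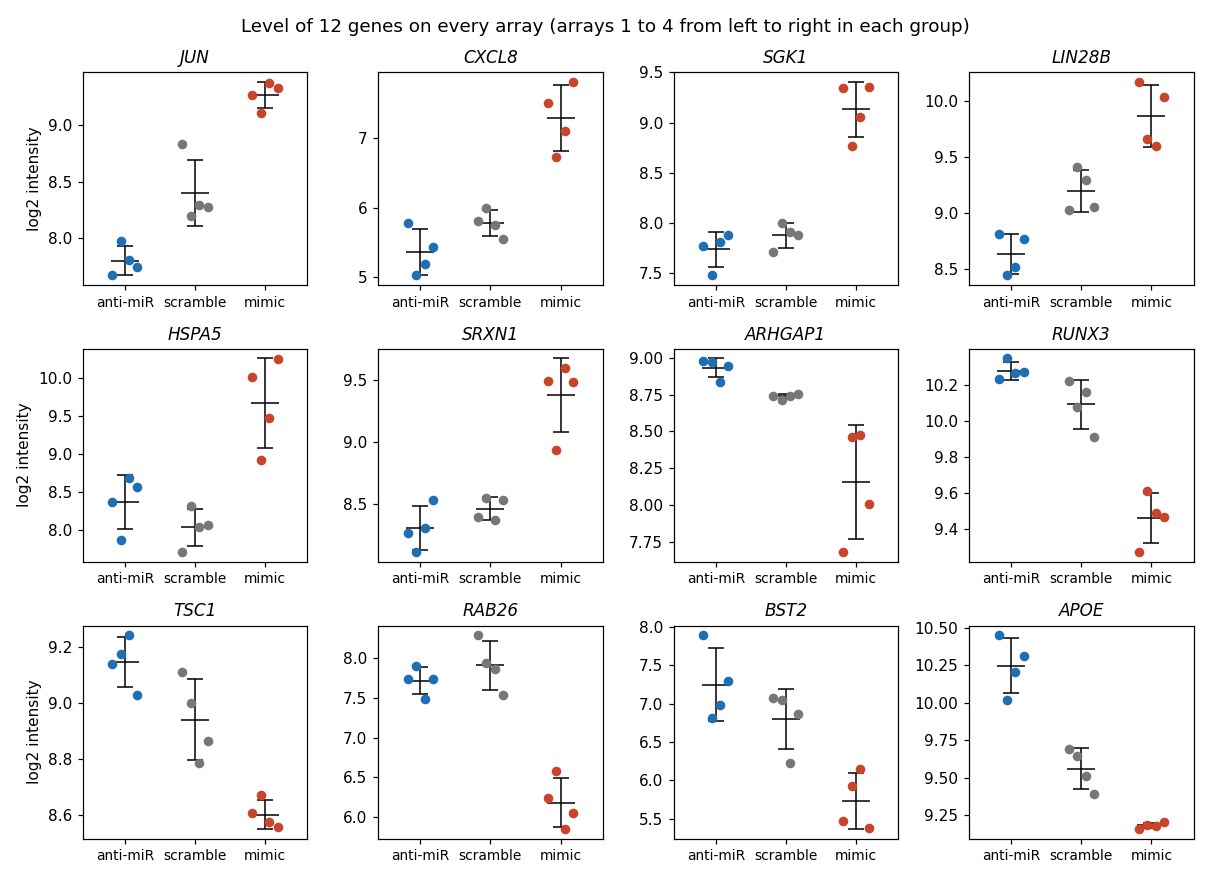
Points are log2 intensities of 12 genes on each array, with a long bar for the mean and whiskers for 1 SD (n = 4 arrays per group); each panel has its own axis, which does not start at 0. JUN, CXCL8, SGK1, LIN28B, HSPA5 and SRXN1 are highest on the mimic arrays, ARHGAP1, RUNX3, TSC1, RAB26, BST2 and APOE are lowest there, and for ARHGAP1 mimic 1 and 4 lie well below mimic 2 and 3.

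Genes that respond early to growth factors and stress, among them targets of AP-1, were called more often than the background. Of 37 tested, 10 were higher and 1 was lower, 29.7% in all, with a median of 0.29. This list and the others were chosen with earlier results of these data known, so their shares are descriptions. CXCL8, the neutrophil-attracting chemokine interleukin 8, read 7.50, 6.72, 7.10 and 7.81 on the mimic arrays, 5.79, 5.03, 5.19 and 5.44 on the anti-miR arrays and 5.81, 5.998, 5.75 and 5.54 on the scramble arrays. Mimic arrays were far above both other groups, which overlapped each other, and 1 of the 4 anti-miR arrays did not detect the probe. The difference was 1.92 ± 0.23 (adjusted p = 0.00289), or 3.79-fold. A second, dimmer CXCL8 probe gave 0.50 (adjusted p = 0.0626).

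SGK1, a serum- and glucocorticoid-induced kinase, read 9.35, 8.77, 9.06 and 9.35 on the mimic arrays, 7.78, 7.48, 7.81 and 7.88 on the anti-miR arrays and 7.72, 8.004, 7.91 and 7.88 on the scramble arrays. Its anti-miR and scramble arrays overlapped, with the mimic arrays above both, at 1.39 ± 0.14 (adjusted p = 0.00166). The 3 SGK1 probes gave differences of 1.39 to 1.52. KLF2, a zinc finger transcription factor, was higher by 1.21 ± 0.17 (adjusted p = 0.00491). HMOX1, which breaks down haem under oxidative stress, was higher by 0.97 ± 0.19 (adjusted p = 0.0149). CXCL8, SGK1, KLF2 and HMOX1 all held with any 1 array left out.

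EGR1, another early transcription factor, ran the other way. It read 6.11, 7.46, 7.38 and 5.79 on the mimic arrays, 7.99, 8.49, 7.60 and 7.76 on the anti-miR arrays and 7.82, 7.10, 7.27 and 7.81 on the scramble arrays. The mimic arrays were split, with mimic 1 and 4 low and mimic 2 and 3 close to scramble. Its difference of -1.28 ± 0.35 (adjusted p = 0.0447) was lost with any array left out but mimic 2 or 3 (highest adjusted p 0.119). CCN1, a secreted matrix protein, was higher by 0.73 ± 0.17 (adjusted p = 0.0234), and its call was lost without mimic 3 or 4 (highest adjusted p 0.0613).

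The promoter of CXCL8 is shown because the AP-1 motif lies in it. The 250 bases before its start, on the plus strand at chr4:73740319-73740568 (RefSeq, GRCh38.p14), hold 1 match to the AP-1 motif TGANTCA, in capitals.
CXCL8: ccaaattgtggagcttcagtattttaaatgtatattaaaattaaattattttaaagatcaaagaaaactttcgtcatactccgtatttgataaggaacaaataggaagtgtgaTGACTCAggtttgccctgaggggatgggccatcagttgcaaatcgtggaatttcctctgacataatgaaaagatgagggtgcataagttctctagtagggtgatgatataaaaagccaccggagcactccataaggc
The same motif, searched on both strands, occurs in 6.6% of all 27305 promoters of this length and in 3.66% of the promoters of tested genes. It occurs in 4.71% of the promoters of genes called higher and in 3.9% of those of genes called lower. This promoter and those of HSPA5 and BST2 were chosen after the matches were seen, and a match is a description of the letters only. Any part of JUN in the level of CXCL8 was not tested.

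Upstream of JUN, the mitogen-activated kinase cascades had 6 of 28 genes called higher and 0 lower, or 21.4%, at a median of 0.089. MAPK9, which encodes the JUN kinase JNK2, was higher by 0.55 ± 0.10 (adjusted p = 0.0126), although a further MAPK9 probe gave 0.10. MAP2K4, a kinase that activates JNK, was higher by 0.50 ± 0.10 (adjusted p = 0.0153), while a further MAP2K4 probe gave 0.17. At their brightest probes, both genes held in all 8 fits with 1 array left out. MAPK8, which encodes JNK1, was higher by 0.55 ± 0.12 (adjusted p = 0.0205), a call lost without mimic 1 or 4 or anti-miR 2 (highest adjusted p 0.0603). MAP3K7, the kinase TAK1, was higher by 0.40 ± 0.11 (adjusted p = 0.0385), a call lost with any array left out but mimic 2 or 3 or anti-miR 4 (highest adjusted p 0.108). MAP3K20, a stress-activated kinase that is not on this list, was lower at -1.13 ± 0.14 (adjusted p = 0.00352) at its brightest probe, while its other probes gave 0.13 and -0.19.

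Targets and partners of NRF2, the transcription factor of the oxidative stress response, made up the list with the highest median of the pathway lists (0.33). All 19 members tested had positive differences, and 6 were called higher (31.6%). SRXN1, which repairs oxidized peroxiredoxins, read 9.49, 8.93, 9.59 and 9.48 on the mimic arrays, 8.26, 8.11, 8.30 and 8.53 on the anti-miR arrays and 8.40, 8.55, 8.37 and 8.53 on the scramble arrays. Mimic arrays were above all others, with mimic 2 the lowest of the 4, and the difference was 1.07 ± 0.15 (adjusted p = 0.00513). NQO1, a quinone reductase, was higher by 0.82 ± 0.15 (adjusted p = 0.0134), and TXNRD1, thioredoxin reductase, by 0.78 ± 0.11 (adjusted p = 0.00644). SRXN1, HMOX1, NQO1, TXNRD1 and GCLM held with any 1 array left out. Without mimic 2, 8 members were called.

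Folding enzymes of the endoplasmic reticulum were called mostly higher. Of 41 genes tested, 35 had positive differences, 7 were called higher and 1 lower (19.5%), and the median was 0.26. HSPA5, the chaperone BiP, read 10.02, 8.93, 9.47 and 10.25 on the mimic arrays, 8.37, 7.88, 8.69 and 8.57 on the anti-miR arrays and 7.72, 8.32, 8.05 and 8.07 on the scramble arrays. All mimic arrays exceeded all anti-miR and scramble arrays, but they spread from 8.93 to 10.25. The difference of 1.29 ± 0.26 (adjusted p = 0.0171) was lost without mimic 1 (highest adjusted p 0.054). ERO1A, which oxidizes protein disulfide isomerase, was higher by 0.74 ± 0.11 (adjusted p = 0.00707), and SRPRA, a subunit of the signal recognition particle receptor, by 0.65 ± 0.12 (adjusted p = 0.0117). Both held with any 1 array left out. The other receptor subunit, SRPRB, was lower at -0.67 ± 0.18 (adjusted p = 0.0385), a call lost with any array left out but mimic 2 or 3 (highest adjusted p 0.102).

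The promoter of HSPA5 carries an element described for genes of the unfolded protein response. Its 250 bases before the start lie on the minus strand at chr9:125241344-125241593 (RefSeq, GRCh38.p14). They hold 1 match to the element, CCAAT and CCACG with 9 free bases between them, in capitals.
HSPA5: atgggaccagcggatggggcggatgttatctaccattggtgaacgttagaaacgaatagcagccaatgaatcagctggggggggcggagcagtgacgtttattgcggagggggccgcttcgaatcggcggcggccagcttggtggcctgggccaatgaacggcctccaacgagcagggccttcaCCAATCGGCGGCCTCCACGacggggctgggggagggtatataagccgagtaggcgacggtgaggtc
That element, searched on both strands, occurs in 22 of 27305 promoters (0.0806%), in 15 of 9173 promoters of tested genes and in 2 of 488 promoters of genes called higher.

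Cytosolic and mitochondrial chaperones had 29 positive differences among 31, with 7 called higher and 0 lower (22.6%) and a median of 0.23. None of the 7 calls held in all 8 fits with 1 array left out. CHORDC1, a partner of the chaperone HSP90, was higher by 0.55 ± 0.11 (adjusted p = 0.0163), lost without mimic 1 or 4 (highest adjusted p 0.0531). HSPH1, the chaperone HSP105, was higher by 0.51 ± 0.13 (adjusted p = 0.032), lost with any array left out but mimic 2 or anti-miR 3 or 4 (highest adjusted p 0.0869). HSPA4 and STIP1, both of the HSP70 and HSP90 machinery, were higher by 0.52 ± 0.15 (adjusted p = 0.0462) and 0.46 ± 0.11 (adjusted p = 0.0293). Their calls were lost with any array left out but mimic 2 (highest adjusted p 0.117) and with any array left out but mimic 2 or anti-miR 3 (highest adjusted p 0.0817), in that order.

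Genes driven by ATF4, the factor of the amino acid and integrated stress response, had 4 of 29 called higher and 0 lower (13.8%). DDIT3, the factor CHOP, was higher by 0.76 ± 0.17 (adjusted p = 0.0238), lost without mimic 3 or anti-miR 1, 3 or 4 (highest adjusted p 0.054). SESN2, DDIT4 and PPP1R15A were higher by 0.72 ± 0.18 (adjusted p = 0.0335), 0.52 ± 0.13 (adjusted p = 0.0302) and 0.45 ± 0.11 (adjusted p = 0.0342). SESN2 was lost with any array left out but mimic 4 or anti-miR 4 (highest adjusted p 0.0817), DDIT4 with any array left out but mimic 3 or anti-miR 2 (highest adjusted p 0.0808) and PPP1R15A with any array left out but mimic 1 or anti-miR 2 (highest adjusted p 0.081). Aminoacyl-tRNA synthetases, several of which ATF4 also drives, had 0 of 18 higher and 1 lower, QARS1 at -0.33 ± 0.09 (adjusted p = 0.0465), lost with any array left out but mimic 2 (highest adjusted p 0.121). Subunits of the proteasome had 27 positive differences among 28 and 4 called higher (14.3%), at a median of 0.27. PSMC2, an ATPase of its cap, was higher by 0.46 ± 0.09 (adjusted p = 0.0155), lost without mimic 1 (highest adjusted p 0.0523). PSMD12, PSMC1 and PSMD6 were higher by 0.50 ± 0.10 (adjusted p = 0.0174), 0.41 ± 0.10 (adjusted p = 0.0269) and 0.36 ± 0.10 (adjusted p = 0.0494). They were lost without mimic 1 or 4 (highest adjusted p 0.0559), without mimic 1 or 4 or anti-miR 1 or 2 (highest adjusted p 0.0782) and with any array left out but mimic 2 or anti-miR 3 (highest adjusted p 0.11).

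Interferon-stimulated genes formed the pathway list with the lowest median, -0.46, with 9 of 34 called lower and 0 higher (26.5%). BST2, the virion-tethering protein tetherin, read 5.48, 5.92, 6.15 and 5.38 on the mimic arrays, 7.89, 6.81, 6.98 and 7.29 on the anti-miR arrays and 7.07, 7.04, 6.22 and 6.87 on the scramble arrays. The mimic and anti-miR arrays did not overlap, and 3 of the 4 scramble arrays lay among the anti-miR values. Its difference was -1.51 ± 0.23 (adjusted p = 0.00704), a level 2.85-fold lower with the mimic. IFITM1, a membrane protein that hinders viral entry, was lower at -0.78 ± 0.13 (adjusted p = 0.00917). IRF1, described above among the targets, belongs to this list as well. OASL was lower at -0.98 ± 0.24 (adjusted p = 0.0295), lost with any array left out but mimic 2 or 3 or anti-miR 2 (highest adjusted p 0.0852). In all, 6 of the 9 calls held with any 1 array left out, and without mimic 2 the list had 13 calls.

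The promoter of BST2 holds 2 matches to an interferon-stimulated response element motif. The 250 bases before its start are on the minus strand at chr19:17405631-17405880 (RefSeq, GRCh38.p14). Capitals mark the motif, GAAA repeated with 2 free bases between the repeats.
BST2: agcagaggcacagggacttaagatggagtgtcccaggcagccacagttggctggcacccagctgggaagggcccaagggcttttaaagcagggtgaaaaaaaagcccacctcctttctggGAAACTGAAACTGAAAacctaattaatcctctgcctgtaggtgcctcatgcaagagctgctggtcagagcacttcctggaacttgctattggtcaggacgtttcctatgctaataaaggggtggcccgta
That motif, searched on both strands, occurs in 3.07% of all promoters, in 2.33% of those of tested genes and in 2.6% of those of genes called lower.

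Class I antigen presentation had 4 of 15 genes lower and 0 higher (26.7%), at a median of -0.15. HLA-G, a non-classical class I molecule, read 5.89, 6.07, 5.83 and 5.93 on the mimic arrays, 6.49, 6.90, 6.49 and 6.50 on the anti-miR arrays and 6.18, 6.05, 6.26 and 5.77 on the scramble arrays. Here the anti-miR arrays were highest, while mimic and scramble arrays overlapped. The difference was -0.67 ± 0.11 (adjusted p = 0.00955). Class I genes resemble each other closely, so probes may share signal between them. PSME1, a subunit of the proteasome activator PA28, was lower at -0.64 ± 0.10 (adjusted p = 0.00824), while its further probe gave -0.14. HLA-E and HLA-F were lower at -0.40 ± 0.09 (adjusted p = 0.0267) and -0.38 ± 0.09 (adjusted p = 0.0274), and their calls were lost with any array left out but mimic 2 or anti-miR 3 or 4 (highest adjusted p 0.0761) and with any array left out but mimic 2 or 3 or anti-miR 4 (highest adjusted p 0.0779). A further HLA-F probe gave -0.31 (adjusted p = 0.205), with groups that overlapped.

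Among genes of inflammation, CXCL8 and CD83 were higher and CCL5 lower, 3 of 16 tested (18.8%). CCL5, a chemokine, was lower at -0.49 ± 0.13 (adjusted p = 0.0387), lost with any array left out but mimic 2 or anti-miR 3 (highest adjusted p 0.107), and CD83 was higher by 0.50 ± 0.11 (adjusted p = 0.0217), lost without mimic 1 or 4 or anti-miR 2 (highest adjusted p 0.0658).

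The microRNA machinery had 2 genes higher and 2 lower among 30 (13.3%), near the 10.2% of all genes. LIN28B, which blocks maturation of the let-7 microRNAs, stood apart from the rest of this list. It read 10.18, 9.66, 9.60 and 10.04 on the mimic arrays, 8.81, 8.45, 8.52 and 8.77 on the anti-miR arrays and 9.03, 9.41, 9.30 and 9.06 on the scramble arrays. The 3 groups did not overlap, with scramble in the middle, and the difference was 1.23 ± 0.14 (adjusted p = 0.00289), or 2.35-fold. AGO1, an Argonaute protein, was lower at -0.44 ± 0.10 (adjusted p = 0.0245), lost without mimic 1 or 4 or anti-miR 3 or 4 (highest adjusted p 0.0726). PAN3, a deadenylase subunit, was lower at -0.46 ± 0.12 (adjusted p = 0.0352) and LSM1, a decapping factor, higher by 0.35 ± 0.09 (adjusted p = 0.0373), calls lost with any array left out but mimic 2 (highest adjusted p 0.085) and with any array left out but mimic 2 or anti-miR 3 (highest adjusted p 0.103).

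Several of the largest differences fell outside these pathways. ARID3B, a DNA-binding protein, read 8.93, 7.92, 8.28 and 8.81 on the mimic arrays, 7.11, 6.95, 6.98 and 7.22 on the anti-miR arrays and 7.20, 7.77, 7.64 and 7.27 on the scramble arrays. Its mimic arrays were above all others, at 1.42 ± 0.19 (adjusted p = 0.00491). RGS16, which shortens signalling of G protein-coupled receptors, read 9.53, 9.04, 9.35 and 9.27 on the mimic arrays, 8.03, 8.01, 8.03 and 8.07 on the anti-miR arrays and 8.91, 8.17, 8.03 and 8.20 on the scramble arrays. The anti-miR values were nearly equal and all mimic values lay above the other 8, at 1.26 ± 0.11 (adjusted p = 0.000952). NTS, the neuropeptide neurotensin, was higher by 1.28 ± 0.20 (adjusted p = 0.00704). S1PR3, a receptor for sphingosine 1-phosphate, was higher by 1.36 ± 0.17 (adjusted p = 0.00374), with its probe detected on 1 of the 4 anti-miR arrays. The glucose transporter SLC2A3 was higher by 1.20 ± 0.25 (adjusted p = 0.0188), a call lost without mimic 1 or 4 (highest adjusted p 0.054).

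On the lower side, RAB26, a small GTPase of secretory vesicles, read 6.24, 6.58, 5.85 and 6.05 on the mimic arrays, 7.74, 7.90, 7.48 and 7.75 on the anti-miR arrays and 8.29, 7.94, 7.87 and 7.54 on the scramble arrays. Its scramble and anti-miR arrays overlapped, and the mimic arrays lay clearly below both, at -1.54 ± 0.15 (adjusted p = 0.0016). CDK19, a kinase of the Mediator complex, read 7.78, 8.56, 8.19 and 7.81 on the mimic arrays, 9.45, 9.61, 9.20 and 9.49 on the anti-miR arrays and 9.52, 8.96, 9.03 and 9.05 on the scramble arrays. Its mimic arrays were the lowest of the 12, and the difference was -1.35 ± 0.17 (adjusted p = 0.00352). SBF2, a regulator of Rab activation, was lower at -1.29 ± 0.17 (adjusted p = 0.00457). CCNG2, an unconventional cyclin linked to growth arrest, was lower at -1.16 ± 0.20 (adjusted p = 0.0107), with its probe detected on 2 of the 4 mimic arrays and a further probe at -0.40. CBY1, an antagonist of beta-catenin, was lower at -1.11 ± 0.18 (adjusted p = 0.00802).

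Rab GTPases and their partners, the switches of membrane traffic, were called often and in both directions, with 8 of 45 higher and 5 lower (28.9%). RAB40B and RAB34 were lower at -0.80 ± 0.14 (adjusted p = 0.00975) and -0.67 ± 0.13 (adjusted p = 0.0154), and RAB23 was higher by 0.54 ± 0.10 (adjusted p = 0.0132). Those 3 and RAB26 were the 4 that held with any 1 array left out. Lysosomal and autophagy genes had 2 of 50 higher and 6 lower (16%). PSAP, the precursor of the saposins that help degrade sphingolipids, read 10.87, 11.43, 11.13 and 10.80 on the mimic arrays, 12.21, 12.14, 12.07 and 12.29 on the anti-miR arrays and 12.14, 12.29, 11.97 and 11.89 on the scramble arrays. All mimic arrays lay below all others, at -1.12 ± 0.13 (adjusted p = 0.00308). CTSA, a lysosomal carboxypeptidase, was lower at -0.83 ± 0.14 (adjusted p = 0.00915), and TPP1, a lysosomal peptidase, at -0.69 ± 0.12 (adjusted p = 0.00915). PSAP, CTSA and TPP1 held with any 1 array left out.

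Regulators of mTOR had 1 of 28 higher and 4 lower (17.9%). RRAGD, a Rag GTPase that brings mTOR complex 1 to the lysosome, was lower at -0.52 ± 0.08 (adjusted p = 0.00824). EIF4EBP2, a repressor of cap-dependent translation, was higher by 0.52 ± 0.09 (adjusted p = 0.0117). These and TSC1 held with any 1 array left out, while PRKAA1, a catalytic subunit of AMP-activated kinase, was lower at -0.54 ± 0.13 (adjusted p = 0.0255) and was lost with any array left out but mimic 2 or 3 or anti-miR 1 (highest adjusted p 0.0762). FOXO-linked growth restraint had 2 of 21 lower and 0 higher (9.52%), CCNG2 and YPEL3. YPEL3 was lower at -0.80 ± 0.19 (adjusted p = 0.0279), lost with any array left out but mimic 2 or anti-miR 3 or 4 (highest adjusted p 0.0733).

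Genes of the G1/S transition and DNA replication had 5 of 50 higher and 0 lower, which at 10% is near the background. CDC25A, the phosphatase that activates cyclin-dependent kinases, read 10, 9.76, 10.29 and 10.26 on the mimic arrays, 9.13, 9.06, 9.69 and 9.25 on the anti-miR arrays and 8.57, 9.15, 9.14 and 9.49 on the scramble arrays. The groups were apart at 0.80 ± 0.16 (adjusted p = 0.015), and this was the 1 member that held with any 1 array left out. CDK6, CCNE1 and CCND1, all drivers of the G1 phase, were higher by 0.70 ± 0.18 (adjusted p = 0.0334), 0.54 ± 0.15 (adjusted p = 0.0462) and 0.38 ± 0.11 (adjusted p = 0.0452). They were lost with any array left out but mimic 2 or 3 (highest adjusted p 0.092), with any array left out but mimic 2 or anti-miR 4 (highest adjusted p 0.119) and with any array left out but mimic 2 or anti-miR 4 (highest adjusted p 0.119). ORC1, a subunit of the origin recognition complex, was higher by 0.39 ± 0.09 (adjusted p = 0.0303), lost with any array left out but mimic 2 or anti-miR 3 (highest adjusted p 0.0827). Mitotic genes had 2 of 43 higher and 0 lower (4.65%), below the background. AURKB was higher by 0.37 ± 0.10 (adjusted p = 0.0388) and MAD2L1 by 0.34 ± 0.09 (adjusted p = 0.0433). They were lost with any array left out but anti-miR 3 (highest adjusted p 0.101) and with any array left out but anti-miR 3 (highest adjusted p 0.106), and a further MAD2L1 probe gave -0.23. Among p53 targets and cell cycle inhibitors 3 of 23 were higher and 1 was lower (17.4%). CCNG2 held with any 1 array left out. SESN2 is given above, and TIGAR and PMAIP1 were higher by 0.47 ± 0.12 (adjusted p = 0.0327) and 0.41 ± 0.11 (adjusted p = 0.0428), lost with any array left out but anti-miR 3 (highest adjusted p 0.0795) and with any array left out but anti-miR 1 (highest adjusted p 0.116).

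**Figure D3:**
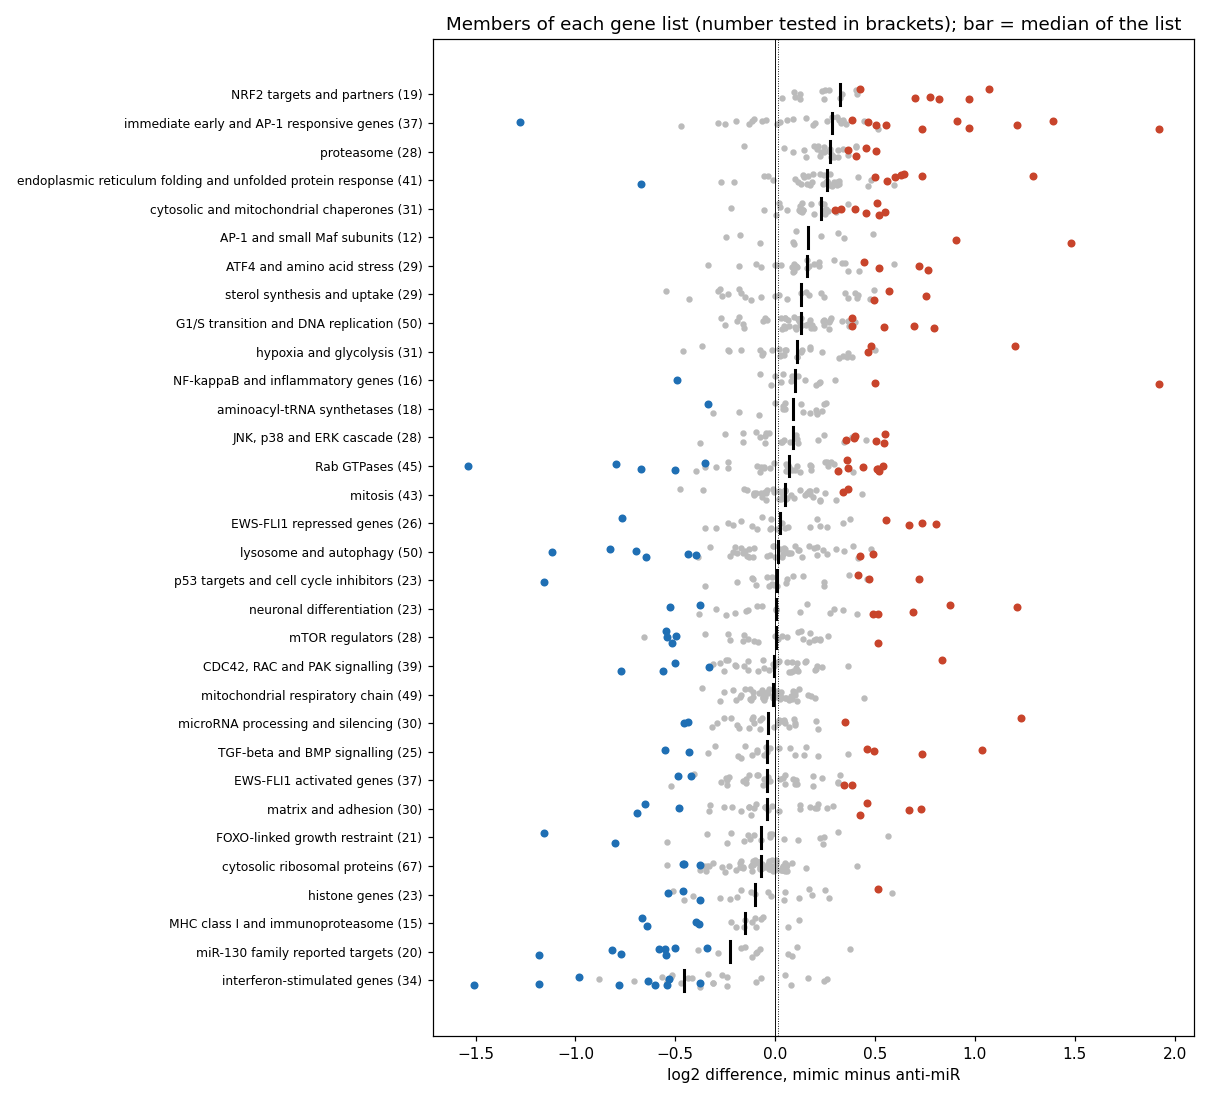
Each point is a tested member of a gene list, placed by its log2 difference (mimic minus anti-miR), in red where it was called higher with the mimic, in blue where called lower and in grey otherwise; the black bar is the list's median and the dotted line that of all genes. NRF2 targets have the highest median at 0.33 and interferon-stimulated genes the lowest at -0.46, and both the proteasome and the chaperones are shifted to the right, with 4 of 28 and 7 of 31 members called.

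Signalling by TGF-beta and BMP had 4 of 25 genes higher and 2 lower (24%). TGFBR3, a co-receptor, read 8.31, 7.37, 7.29 and 8.38 on the mimic arrays, 6.83, 6.83, 6.65 and 6.90 on the anti-miR arrays and 7.18, 7.41, 7.22 and 7.07 on the scramble arrays. The mimic arrays spread widely, and its difference of 1.03 ± 0.23 (adjusted p = 0.0232) was lost without mimic 1 or 4 or anti-miR 2 (highest adjusted p 0.0638). The receptors ACVR1 and ACVR2B held with any 1 array left out in opposite directions, ACVR1 lower as given above and ACVR2B higher by 0.49 ± 0.09 (adjusted p = 0.0141). BMP2, a BMP ligand, was higher by 0.74 ± 0.16 (adjusted p = 0.021), lost without mimic 1 or anti-miR 2 (highest adjusted p 0.0593).

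Sterol synthesis and uptake had 3 of 29 genes higher and 0 lower (10.3%). HMGCS1, DHCR7 and ACAT2 were higher by 0.75 ± 0.21 (adjusted p = 0.0432), 0.57 ± 0.15 (adjusted p = 0.0371) and 0.50 ± 0.10 (adjusted p = 0.0188), and were lost with any array left out but mimic 2 or 3 (highest adjusted p 0.113), with any array left out but mimic 2 (highest adjusted p 0.0978) and without mimic 1 or 4 (highest adjusted p 0.0589). A further ACAT2 probe gave 0.32. Hypoxia and glycolysis genes had 3 of 31 higher and 0 lower (9.68%). Besides SLC2A3 these were ADM and PFKFB3, at 0.48 ± 0.13 (adjusted p = 0.0376) and 0.47 ± 0.10 (adjusted p = 0.0206), lost with any array left out but mimic 2 or 3 or anti-miR 4 (highest adjusted p 0.105) and without mimic 1 or 4 or anti-miR 1 (highest adjusted p 0.0638). Both shares were near the 10.2% of all genes.

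Matrix and adhesion genes had 4 of 30 higher and 3 lower (23.3%). ADAMTS1, a secreted protease, and TIMP3, an inhibitor of matrix proteases, were higher by 0.73 ± 0.09 (adjusted p = 0.00395) and 0.67 ± 0.13 (adjusted p = 0.0155). LAMB2, a laminin chain, and MMP11, a matrix protease, were lower at -0.69 ± 0.11 (adjusted p = 0.00748) and -0.65 ± 0.12 (adjusted p = 0.0131). All 4 held with any 1 array left out. Neuronal differentiation genes had 5 of 23 higher and 2 lower (30.4%). ZCCHC12, a zinc finger protein of neural tissue, read 8.88, 8.23, 8.42 and 8.84 on the mimic arrays, 7.27, 7.42, 7.49 and 7.34 on the anti-miR arrays and 7.31, 7.19, 7.31 and 7.40 on the scramble arrays. Its mimic arrays lay above both other groups, which overlapped, at 1.21 ± 0.14 (adjusted p = 0.00307). NEFM, a neurofilament subunit, and GAP43, a growth cone protein, were higher by 0.88 ± 0.15 (adjusted p = 0.00918) and 0.69 ± 0.10 (adjusted p = 0.00671), and CRMP1, a cytoskeletal protein of axon guidance, was lower at -0.53 ± 0.10 (adjusted p = 0.0141).

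EWS-FLI1 is the fusion transcription factor that drives most Ewing sarcomas. Of the genes listed as activated by it, 2 of 37 were higher and 2 lower (10.8%), and of those listed as repressed, 4 of 26 were higher and 1 was lower (19.2%). XG, a surface antigen among the activated genes, was lower at -0.49 ± 0.08 (adjusted p = 0.00892) and held with any 1 array left out. FCGRT was lower at -0.42 ± 0.11 (adjusted p = 0.0409), and VRK1 higher by 0.34 ± 0.09 (adjusted p = 0.0398), lost with any array left out but mimic 2 or anti-miR 3 (highest adjusted p 0.111) and with any array left out but mimic 3 (highest adjusted p 0.113). CCND1, given above with the G1 genes, was the other activated gene called higher. Of the 11 Ewing sarcoma markers tested, CCND1 was called higher and FCGRT lower (18.2%). Among the repressed genes, TIMP3 is given above and S100A4, a calcium-binding protein, was lower at -0.77 ± 0.11 (adjusted p = 0.00512). COL1A1, the collagen chain of connective tissue, was higher by 0.81 ± 0.18 (adjusted p = 0.0209), lost without mimic 1 or 4 or anti-miR 2 (highest adjusted p 0.06).

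COL1A1 is also a fibroblast marker, and beside it THY1 was higher by 0.50 ± 0.12 (adjusted p = 0.0301) and DCN lower at -0.44 ± 0.12 (adjusted p = 0.0419), calls lost with any array left out but mimic 2 or anti-miR 3 or 4 (highest adjusted p 0.0878) and with any array left out but mimic 4 (highest adjusted p 0.092). Further DCN probes gave -0.24 and -0.08. The mean log2 level of the fibroblast list was 6.95 to 7.25 on mimic arrays and 6.89 to 7.08 on anti-miR arrays, so the ranges overlapped. The part of these markers in the matrix and EWS-FLI1 results was not tested. Of the other markers, KRT8 of epithelium was higher by 0.73 ± 0.20 (adjusted p = 0.0416), CD79A of B cells was higher by 0.60 ± 0.10 (adjusted p = 0.00965) and CLDN5 of endothelium was lower at -0.59 ± 0.16 (adjusted p = 0.039). KRT8 was lost with any array left out but mimic 2 (highest adjusted p 0.111) and CLDN5 with any array left out but mimic 4 or anti-miR 3 (highest adjusted p 0.0872). Probes for 5 of 9 epithelial, 4 of 9 blood cell and 5 of 7 endothelial markers were detected on none of the 8 arrays.

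The respiratory chain had 0 of 49 genes called by limma, and 6 of 49 had an unadjusted p under 0.05, beside 29.2% of all genes. Cytosolic ribosomal proteins had 3 of 67 lower and 0 higher (4.48%). These were RPL13, RPL13A and RPL22, at -0.46 ± 0.12 (adjusted p = 0.0406), -0.46 ± 0.12 (adjusted p = 0.0376) and -0.38 ± 0.10 (adjusted p = 0.0418), and all were lost without mimic 1, 3 or 4 or anti-miR 1, 2 or 3, and RPL13 and RPL22 also without anti-miR 4 (highest adjusted p 0.113, 0.102 and 0.114). A further RPL13 probe gave 0.48, and the mean of its probes reversed to 0.00808. Histone genes had 1 of 23 higher and 3 lower (17.4%). H1-10 and H2AC20 were lower at -0.54 ± 0.10 (adjusted p = 0.0111) and -0.46 ± 0.09 (adjusted p = 0.015), and H3-3B, a replication-independent histone gene, was higher by 0.52 ± 0.10 (adjusted p = 0.0141). H2BC9 was lower at -0.38 ± 0.10 (adjusted p = 0.0377), lost with any array left out but mimic 2 or anti-miR 4 (highest adjusted p 0.107). Histone genes of a cluster are close copies, so their probes may share signal.

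At 31 of the 598 genes called higher and 19 of the 563 called lower, all 4 scramble arrays lay between the mimic and the anti-miR arrays. Over all 11419 genes tested, called or not, 51 had this order. JUN, NTS and LIN28B were among the called genes with it. FAM3C, a secreted protein, had means of 8.30 ± 0.23 with the mimic and 7.19 ± 0.11 with the anti-miR (SD, n = 4), around a scramble mean of 7.55. Its difference was 1.10 ± 0.12 (adjusted p = 0.00221). SCML1, C9orf40, TNFRSF21 and ANKRD46 followed on the higher side, at 1.03, 0.99, 0.86 and 0.80. On the lower side, APOE, a lipid carrier protein, read 9.16, 9.19, 9.18 and 9.20 on the mimic arrays, 10.45, 10.02, 10.21 and 10.31 on the anti-miR arrays and 9.69, 9.64, 9.51 and 9.39 on the scramble arrays. The mimic values were nearly identical, the 3 groups did not overlap, and the difference was -1.07 ± 0.10 (adjusted p = 0.0016). THOP1, MFSD6, CALY, RTCA, SYBU and MLLT6 were lower at -0.93, -0.91, -0.91, -0.89, -0.89 and -0.84. These genes were picked for the place of scramble, so that place is a description without a test.

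Some genes were detected in only 1 of the 2 groups compared. Of the 11419 genes tested, 17 were detected on all 4 mimic and no anti-miR arrays and 22 the other way round. Such genes passed the detection filter only through the group where they are high, so their direction is no separate result. For these a fold change is a lower bound, from the bright group's mean over, per array, the higher of the lowest level counted as detected and the dim probe's own level. ABTB1 was at least 1.79-fold lower with the mimic (means 4.79 ± 0.09 and 6.03 ± 0.35). PLAAT4, a phospholipid-modifying enzyme, was at least 1.78-fold lower (means 4.67 ± 0.15 and 6.02 ± 0.14). SCGB3A2, PSTPIP1 and PPP1R1B were at least 1.54-fold, 1.44-fold and 1.41-fold lower. In the other direction PALM3 was at least 1.46-fold higher (means 5.72 ± 0.45 and 4.81 ± 0.21). UTS2B, CFAP95, SLC10A2 and HAMP, the iron hormone hepcidin, were at least 1.37-fold, 1.32-fold, 1.29-fold and 1.29-fold higher. These genes lie close to the detection limit, and some were detected on scramble arrays too, ABTB1 on 4 of 4 and PLAAT4, HAMP and SLC10A2 on 3 of 4.

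Further probes bear on how far a single probe can be read. Of the called genes, 313 had 379 further kept probes, and 332 of these pointed the same way, 145 of them called in that direction and 1 called in the opposite direction. That 1 probe belongs to NRP1, a co-receptor of vascular growth factors, which was named after its values were seen.

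**Figure D4:**
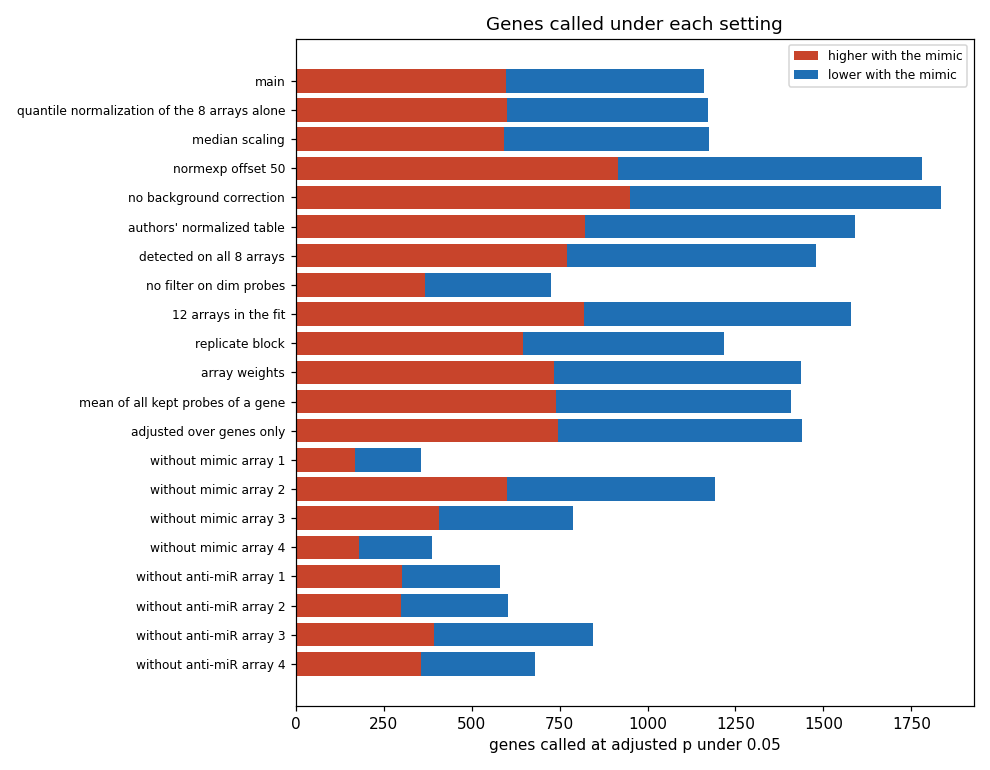
Bars give the genes called at an adjusted p under 0.05 in each fit, split into higher (red) and lower (blue) with the mimic. The count runs from 357 without mimic array 1 to 1835 without background correction, and the split stays near even in each fit.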

How the data were processed

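Total RNA taken up in Trizol and column-purified was amplified to biotinylated cRNA for BeadChip hybridization, per the labels' protocols. The raw table the authors deposited lists, per the file headers, a mean signal intensity with its detection p-value at every probe, array by array. A second deposited table holds intensity already background-subtracted by the authors, with a median of 12 on every array and 159270 values below 0; the method is not given in the sources used here, and it served only as an alternative. Intensities of all 12 arrays were corrected with limma's normexp model (background from the detection p-values, offset 16), quantile normalized and log2-transformed with limma 3.58.1 in R 4.3.3. The scramble arrays entered this step but not the fit.

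A linear model was fitted to the 4 mimic and 4 anti-miR arrays with lmFit and eBayes. Benjamini-Hochberg adjustment ran over all 19660 kept probes, and a probe was called at an adjusted p under 0.05 (9.94% of probes). Named probes were matched to RefSeq by Entrez identifier (30074 of 30113 with 1 name; 8 had several names and 17201 none). The 4513 kept probes without a name, 440 of them called, enter no count of genes. The procedure was tested on simulated data, and the outcome is not reported here. The number of arrays limits the precision, so small differences can go uncalled.

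Genes were named by a rule: ARHGAP1, CDC42, PAK1, the AP-1 subunits and the miR-130 family's own genes; the 12 largest calls each way with groups that do not overlap; up to 4 called members per list; up to 8 calls each way with scramble between the groups; and up to 5 genes each way detected in only 1 of the groups compared. The comparison, its gene lists and this rule were chosen with earlier results of these data known. There were 37 lists, not counting the longer target list, and 5 of the 37 hold cell type markers. Alternatives covered normalization, background correction, filters, the fit, arrays left out and the choice of probe. The 1 gene called higher on the CDC42, RAC and PAK list is not reported here by name.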

Additional observations from a re-analysis of the deposited data

Results flagged for a closer look

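Among 459 groups of 4 arrays examined for the genes named and the array measures, 25 held 1 array far from the other 3; chance flags about 1 group in 20. Of these, 5 were mimic, 7 anti-miR and 13 scramble groups, and the scramble groups take no part in the fit.

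Of the mimic group, mimic 2 stood low for TXNRD1 at 10.66 (others 11.06 to 11.11) and for HAMP at 5.44 (others 5.57 to 5.58), and its median raw intensity of 87.6 was above the 84.5 to 85 of the others. Mimic 3 read 7.94 for CTSA, with the others at 7.48 to 7.49. Mimic 4 read 9.75 for PMAIP1, with the others at 9.46 to 9.50.

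Of the anti-miR group, anti-miR 2 read 6.90 for HLA-G (others 6.49 to 6.50) and 8.31 for HSPA4 (others 8.74 to 8.79). Anti-miR 3 read 8.09 for CALY, 10.31 for PSMD12 and 8.03 for TIGAR, low for the first and high for the other two. Anti-miR 4 read 10.24 for PFKFB3 and 5.28 for PPP1R1B, high and low in that order.

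Of the scramble group, scramble 1 stood high for JUN at 8.83 (others 8.19 to 8.29), for ATF3 at 9.15 (others 8.18 to 8.22), for CDK19 at 9.52 and for XG at 8.58. It stood low for ATP6V0D1 at 8.58, for AURKB at 10.26 and for PSMD12 at 9.97. Scramble 3 read 9.02 for PAN3, which was high. Scramble 4 stood high for MAD2L1 at 10.60 and SRPRB at 9.73, and low for COL1A1 at 7.19, SBF2 at 7.15 and WIPF1 at 6.45.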

How the results depend on the processing

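Single arrays moved the counts more than most settings. With 1 array left out, 357 to 1193 genes were called, 168 to 599 higher and 189 to 594 lower; the lone exception to a fall was mimic 2, whose omission left the count near 1161. Background handling raised it: an offset of 50 called 1779 genes (916 higher, 863 lower) and no background correction 1835 (949 and 886). Without the filter on dim probes, which tests more genes, 726 were called (368 and 358). The other settings gave 1172 to 1589 calls. RPL13 reversed to 0.00808 with the mean of its probes, and JUNB, at -0.0745 on all 8 arrays, ran from -0.177 to 0.0278 with 1 array left out; neither value was called and the cause was not tested. Of the 140 named genes called, 93 kept their call in every one of the 12 other settings that tested them, and 75 did so in the 8 fits with 1 array left out as well. The deviations of same-numbered mimic and anti-miR arrays correlated at 0.0777, 0.135, 0.209 and 0.0268. These values were not set beside those of differently numbered arrays, so they cannot decide whether the numbers pair the arrays. The main fit took no pairing. With the replicate block, 1216 genes were called, 645 higher and 571 lower, and 984 of them were also called in the main fit. Signal over background limits dim genes: 17 genes were undetected in all anti-miR arrays and 22 in all mimic arrays, and for these only a bound is given.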
